A study of Mus musculus with 1931 samples.

Results

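The data concerned 34 genes of glycolysis and of the response to low oxygen, taken by name from the 20999 genes of the expression table. They were not picked by their values, but earlier results of these data were known when they were chosen. They comprised 4 carriers of glucose or lactate, 15 glycolytic enzymes, the lactate dehydrogenase subunits *Ldha* and *Ldhb*, the metabolic switches *Pfkfb3* and *Pdk1*, 3 genes of the oxygen sensor and 8 genes known to respond to low oxygen. All 34 had a row in the table. In each group below their values described the RNA of single cells, measured by SMART-seq2.

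Glycolysis converts glucose to pyruvate, which is either reduced to lactate or carried into the mitochondrion and oxidised. When oxygen is scarce, the transcription factor HIF-1, whose alpha subunit is otherwise hydroxylated by the EGLN enzymes and degraded, raises the transcription of glucose carriers, glycolytic enzymes, *Ldha* and *Pdk1*, and of genes such as *Vegfa* and *Bnip3*. Naive pluripotent cells are known to use both glycolysis and respiration, and pluripotent cells of the post-implantation epiblast to rely more on glycolysis.

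The cells came from RtL-embryoids, 3D aggregates of 3 mouse embryonic stem cell (ESC) lines, and from 3 flat (2D) cultures. The ESC lines were Kermit, in which Oct3/4 drives GFP, 5-Factor, with *Cdx2*, *Tfap2c*, *Eomes*, *Gata3* and *Ets2* under doxycycline (DOX) control, and iGATA6-mCherry, with *Gata6* under DOX control. The aggregates received DOX at 2 µg/ml for 3 days and none for the following 24 h, were picked by hand, pooled and sorted as single cells by GFP, mCherry and CD40. Plates 3, 4 and 5 hold cells of that 1 pool. Their wells were read here by column as 1 to 8 (epiblast compartment, Epi), 9 to 16 (visceral endoderm compartment, VE) and 17 to 24 (extraembryonic ectoderm compartment, ExE), a map that the sources used here do not state and that was checked against marker genes alone. The 2D groups were Kermit ESC in 2i/LIF without DOX on plate 7, iTSC made from 5-Factor ESC in trophoblast stem cell medium with DOX on plate 8, and iXEN made from iGATA6-mCherry ESC in extraembryonic endoderm medium with DOX on plate 9, both on the schedule of the aggregates. Each group is thus 1 sample: the 3 plates split 1 pool, no test between groups was possible, and no p-value is given. The 3D and 2D cells differ at once in culture form, medium and plate, with the library preparation done on it. Epi and ESC differ in DOX as well. Lineages, in 3D and in 2D, also differ in ESC line and transgenes. The parts of these cannot be told apart.

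Of 1931 wells, 1406 held at least 2500 genes above 0 and were kept. They were 85.5% of the 1149 wells of the 3D pool, 44.8% of 317 wells of ESC, 49.8% of 283 of iTSC and 77.5% of 182 of iXEN. The 3D cells were split into 31.98% Epi, 32.08% VE and 35.9% ExE. The median number of genes above 0 was 4823 to 5396 in the 3D groups and 8537 to 9093.5 in the 2D groups, so a gene with few transcripts was found in fewer 3D cells. The well columns were checked against markers: by the share of each list above 0, the markers of the compartment led in all but 3 Epi and 4 VE cells, but in 76.2% of ExE cells, where VE markers led in 29, Epi markers in 20 and none in 35. By the summed level of each list the own markers led in 99.7% of Epi, 91.4% of VE and 67.7% of ExE cells. The 5 VE markers summed to 1.23 TP10k in the ExE columns (0.966 to 1.59 on single plates), 0.0599 in Epi and 13.7 in VE, with none at 0. *Pou5f1*, the gene of Oct3/4, stood at 4.53 TP10k in the VE columns against 14.2 in Epi. Markers of fibroblasts summed to 0.0108 to 0.0478 in the 6 groups. TP10k is the TPM of a gene in a cell, an abundance per transcript length, after all genes of that cell were scaled to sum to 10000. Levels are means over the cells of a group and count cells at 0. The methods state that mitochondrial and ribosomal genes and pseudogenes were filtered, and the deposited TPM summed in the median to 564024 (iTSC) to 660983 (Epi) per cell. A level is thus a part of what remained in a cell after this filter, not of all its RNA.

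A gene entered a comparison where 10% or more of the cells on either side had it above 0. It was called higher or lower where the means differed by at least 2-fold and in the same direction on each of plates 3, 4 and 5. *Adm*, which encodes a vasodilator peptide, was found in 1.42% to 8.45% of cells and entered no comparison. For the other members the share of all compared genes with the same call is given as the background.

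HIF binds the core letters ACGTG or GCGTG. The 250 bases before the annotated start (RefSeq, GRCm38.p6) are shown for 8 members on which the results turn, in the direction of transcription, with these letters or their reverse complement in capitals. The genes are *Ldha* and *Ldhb*, whose ratio differed between the groups, *Pgk1* as a standard glycolytic gene, and *Pdk1*, *Bnip3*, *Egln3*, *P4ha1* and *P4ha2*, which are switch, sensor and response genes with calls in several comparisons.
*Ldha*: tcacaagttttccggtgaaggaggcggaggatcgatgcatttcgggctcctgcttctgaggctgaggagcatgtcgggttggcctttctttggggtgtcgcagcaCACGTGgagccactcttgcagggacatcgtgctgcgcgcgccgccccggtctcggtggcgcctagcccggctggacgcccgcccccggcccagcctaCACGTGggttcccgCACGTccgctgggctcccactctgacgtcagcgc
*Ldhb*: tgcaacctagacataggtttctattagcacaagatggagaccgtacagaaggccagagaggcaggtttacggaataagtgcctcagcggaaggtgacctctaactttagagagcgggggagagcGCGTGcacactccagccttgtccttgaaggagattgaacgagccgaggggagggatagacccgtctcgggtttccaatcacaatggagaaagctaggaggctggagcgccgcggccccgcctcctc
*Pgk1*: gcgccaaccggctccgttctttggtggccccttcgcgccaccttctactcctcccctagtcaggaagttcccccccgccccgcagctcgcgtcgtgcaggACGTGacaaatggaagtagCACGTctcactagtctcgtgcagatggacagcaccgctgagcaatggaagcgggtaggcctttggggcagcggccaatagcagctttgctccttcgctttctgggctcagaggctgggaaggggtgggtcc
*Pdk1*: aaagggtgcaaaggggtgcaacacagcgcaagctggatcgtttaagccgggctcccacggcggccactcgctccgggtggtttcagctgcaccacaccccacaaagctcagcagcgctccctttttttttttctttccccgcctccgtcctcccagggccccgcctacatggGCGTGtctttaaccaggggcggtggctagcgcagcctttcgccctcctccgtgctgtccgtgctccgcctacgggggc
*Bnip3*: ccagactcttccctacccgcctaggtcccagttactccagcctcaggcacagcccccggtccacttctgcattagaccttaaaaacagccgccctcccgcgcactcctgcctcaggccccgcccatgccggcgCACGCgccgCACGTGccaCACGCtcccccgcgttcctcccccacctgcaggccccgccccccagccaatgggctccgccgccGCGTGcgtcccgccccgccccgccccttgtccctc
*Egln3*: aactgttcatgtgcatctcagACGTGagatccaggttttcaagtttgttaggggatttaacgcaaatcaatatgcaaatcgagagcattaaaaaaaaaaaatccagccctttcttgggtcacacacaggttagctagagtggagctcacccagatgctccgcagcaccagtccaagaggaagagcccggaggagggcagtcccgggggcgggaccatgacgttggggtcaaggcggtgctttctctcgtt
*P4ha1*: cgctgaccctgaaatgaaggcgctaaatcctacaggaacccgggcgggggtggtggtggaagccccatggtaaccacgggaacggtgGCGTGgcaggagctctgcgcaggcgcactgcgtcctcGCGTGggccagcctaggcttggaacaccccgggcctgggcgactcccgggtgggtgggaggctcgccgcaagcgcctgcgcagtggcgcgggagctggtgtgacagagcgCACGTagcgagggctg
*P4ha2*: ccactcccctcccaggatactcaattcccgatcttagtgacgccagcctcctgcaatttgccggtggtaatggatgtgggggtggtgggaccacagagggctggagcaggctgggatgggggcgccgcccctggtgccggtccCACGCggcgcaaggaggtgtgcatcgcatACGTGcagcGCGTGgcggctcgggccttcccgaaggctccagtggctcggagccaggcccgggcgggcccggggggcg
These windows lie at chr7:46845554-46845803 on the plus strand (*Ldha*), chr6:142507958-142508207 on the minus strand (*Ldhb*), chrX:106186850-106187099 on the plus strand (*Pgk1*), chr2:71872974-71873223 on the plus strand (*Pdk1*), chr7:138909507-138909756 on the minus strand (*Bnip3*), chr12:54203875-54204124 on the minus strand (*Egln3*), chr10:59323046-59323295 on the plus strand (*P4ha1*) and chr11:54100674-54100923 on the plus strand (*P4ha2*). The window of *Ldha* held 5 overlapping or separate matches. The nearest began 34 bases before the start. *Bnip3* also held 5, *P4ha1* and *P4ha2* 3 each, *Pgk1* 2, and *Ldhb*, *Pdk1* and *Egln3* 1 each. The letters CACGTG, which read the same on both strands, count as 2 overlapping matches. RefSeq windows were found for 32 of the 34 members, and 28 of the 32 held at least 1 match, beside 41.5% of the 27025 genes with a window. Counted over alternative starts, 36 of 46 member windows (78.3%) held a match, against 38.6% of the 32851 windows of all genes. Member windows were also richer in C and G, with a median of 61% against 52.4%, and the part of base composition was not tested. A match is a description of the letters and does not show a bound site.

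Per transcript length, the most abundant members in Epi cells were *Gapdh* (51.01 TP10k), *Mif* (38.5), *Eno1* (32.3), *Aldoa* (31.5) and *Pkm* (26.8). Among the 3D groups, Epi had the highest mean for 17 members, VE for 9 and ExE for 8, and for 11, 5 and 2 of these the 3 plates of that group lay above all plates of the others. Epi was highest for 10 of the 15 enzymes. Over all 6 groups the ESC had the highest mean for 8 members and the iTSC for 10. The plot of mean levels shows each member in each group.

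**Figure D1:**
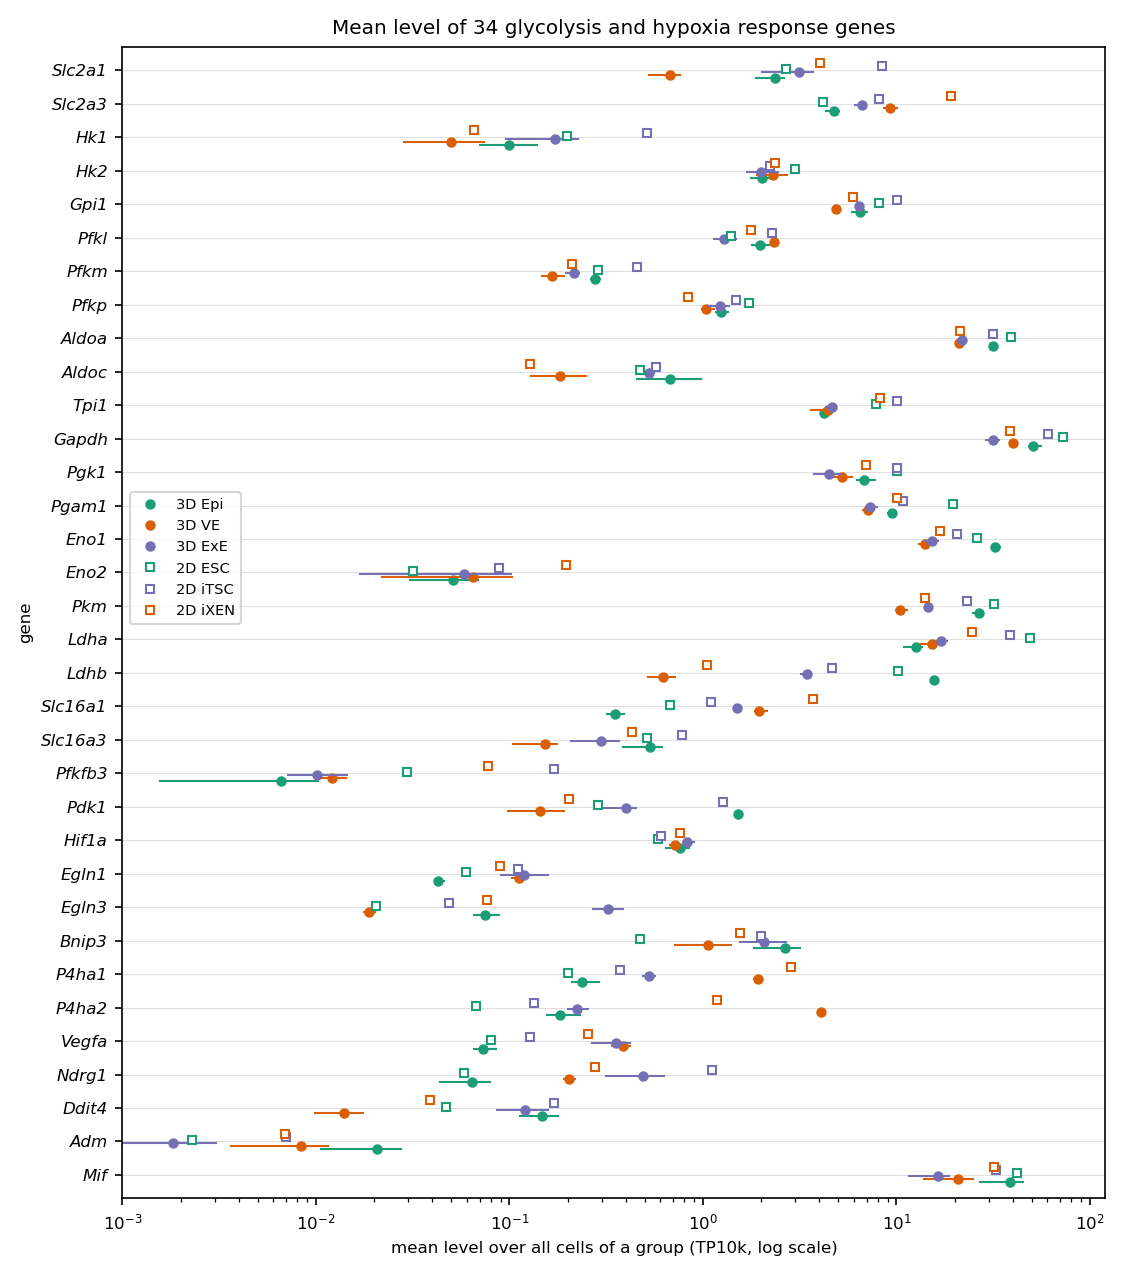
Mean level of each of the 34 members in TP10k on a log axis, with circles for the 3D groups, a line for the range of plates 3 to 5, and squares for the 2D groups. *Ldhb* spans 0.62 in VE to 15.6 in Epi and *P4ha2* 0.0668 in ESC to 4.09 in VE, while *Hif1a* stays between 0.588 and 0.826; *Adm* was listed at 0 on plate 5 of ExE, and its line runs to the edge of the axis.

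Glucose enters the pathway through the carriers GLUT1 (*Slc2a1*) and GLUT3 (*Slc2a3*). *Slc2a1* stood at 2.57, 2.63 and 1.89 TP10k on the 3 plates of Epi, at 3.72, 3.59 and 2.02 in ExE and at 0.728, 0.759 and 0.523 in VE. All plates of VE lay below all plates of the other compartments. The ranges of Epi and ExE over the plates overlapped, with ExE higher within each plate. In 2D the ESC had 2.68, the iTSC 8.41 and the iXEN 4.05. VE was thus 3.5-fold below Epi and 5.99-fold below iXEN, and ExE 2.69-fold below iTSC. *Slc2a3* had another order: 9.29 TP10k in VE, 6.65 in ExE and 4.78 in Epi, against 19.2 in iXEN, 8.08 in iTSC and 4.17 in ESC. As shares of the summed TPM of both carriers, *Slc2a1* made up 32.9% in Epi, 32.5% in ExE and 6.67% in VE, with plate ranges of 27.2% to 37.8%, 25.02% to 35.5% and 4.97% to 7.82%. The iXEN shared the low part of *Slc2a1* with 17.3%, and the iTSC had the highest with 51.6%.

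Hexokinase commits glucose to the cell. *Hk2* was the main hexokinase in every group and differed little, from 2.00 TP10k in ExE to 2.97 in ESC. *Hk1* was low, at 0.0498 in VE to 0.511 in iTSC, and called lower in ExE than in iTSC (log2 ratio -1.58). Phosphofructokinase makes the committed step. Its liver form *Pfkl* took 56.2% of the summed TPM of the 3 forms in Epi, 66.1% in VE and 47.6% in ExE, and its platelet form *Pfkp* 35.8%, 29.3% and 44.2%. The ESC were the one group in which *Pfkp* (50.7%) exceeded *Pfkl* (40.9%).

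The later enzymes of the path differed by compartment. *Eno1*, enolase, stood at 30.98, 34.4 and 31.3 TP10k on the plates of Epi, at 13.5, 15.4 and 13.03 in VE and at 13.8, 16.4 and 15.4 in ExE. Epi lay above both others on every plate, by 2.31-fold over VE and 2.13-fold over ExE. Its near-identical copy *Eno1b* gave 13.4, 5.77 and 6.13 TP10k in the same order, and reads of the 2 genes could not be told apart here. *Pkm*, pyruvate kinase, was 27.9, 27.7 and 24.99 in Epi and 11.4, 9.92 and 9.94 in VE, without overlap. Its ratio of VE to Epi was -1.36 on the log2 scale, while ExE (14.5) against Epi was -0.89 and not called. *Gapdh* had 51.01 in Epi, 40.2 in VE and 31.4 in ExE, *Aldoa* 31.5, 21.1 and 21.8, and neither reached 2-fold. Summed over the 15 enzymes, Epi had 174.8 TP10k (169.04 to 178.2 on single plates), VE 113.4 (112.07 to 114.4) and ExE 111.3 (110.5 to 111.99). The 2D groups had 222.5 in ESC, 184.8 in iTSC and 127.1 in iXEN.

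The minor isozymes were spread differently. *Aldoc*, the brain form of aldolase, was 0.676 TP10k in Epi, 0.529 in ExE and 0.183 in VE, at most 2.35% of the summed aldolase TPM of a group, and was called lower in VE than in Epi and in iXEN than in ESC. *Eno2*, the neuronal enolase, was found in 7.32% to 13.3% of 3D cells, and was lower in VE than in iXEN (0.0645 against 0.197 TP10k). Outside the members, *Pgam2*, the muscle phosphoglycerate mutase, stood at 1.58 TP10k in ExE against 0.223 in iTSC, 0.0400 in Epi and 0.0177 in VE. *Fbp2*, a fructose bisphosphatase of the reverse path, was 2.17 in ExE and 3.05 in iTSC against 0.0499 in Epi and 0.0853 in ESC.

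Lactate dehydrogenase joins pyruvate and lactate, and its A subunit is the HIF-responsive one that favours lactate. *Ldha* (chr7:46841475-46855627) was 13.5, 13.5 and 10.9 TP10k on the plates of Epi, 16.2, 16.3 and 13.4 in VE and 16.9, 18.3 and 15.98 in ExE. Within each plate the order was Epi, VE and ExE from low to high, while the range of VE over the plates overlapped both others. No difference among the compartments reached 2-fold. The 2D cultures lay above all 9 values, at 48.98 in ESC, 38.5 in iTSC and 24.5 in iXEN. Epi was 3.88-fold below ESC. The upper quartile of Epi cells was 19 and the lower quartile of ESC 41.2. ExE was 2.26-fold below iTSC, a call lost with unscaled TPM (log2 ratio -0.98) and between cells with 5000 to 8500 genes (-0.96), and VE against iXEN was -0.67 and not called.

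*Ldhb* (chr6:142490249-142507957) encodes the subunit that favours the use of lactate. It was 15.02, 15.4 and 16.4 TP10k on the plates of Epi, 3.57, 3.51 and 3.22 in ExE and 0.611, 0.717 and 0.522 in VE. The compartments were apart on every plate, VE being 25.2-fold and ExE 4.54-fold below Epi. The 2D groups had the same order, with 10.2 in ESC, 4.64 in iTSC and 1.05 in iXEN, and no 3D group was called against its 2D culture. *Ldhb* made up 55.1% of the summed TPM of both subunits in Epi, with 52% to 60% on single plates, 16.8% in ExE (16.1% to 17.3%) and 3.86% in VE (3.62% to 4.22%). The share was 17.3% in ESC, 10.7% in iTSC and 4.05% in iXEN. Epi was the one group in which *Ldhb* exceeded *Ldha*, and the endoderm groups in 3D and 2D had like shares.

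**Figure D2:**
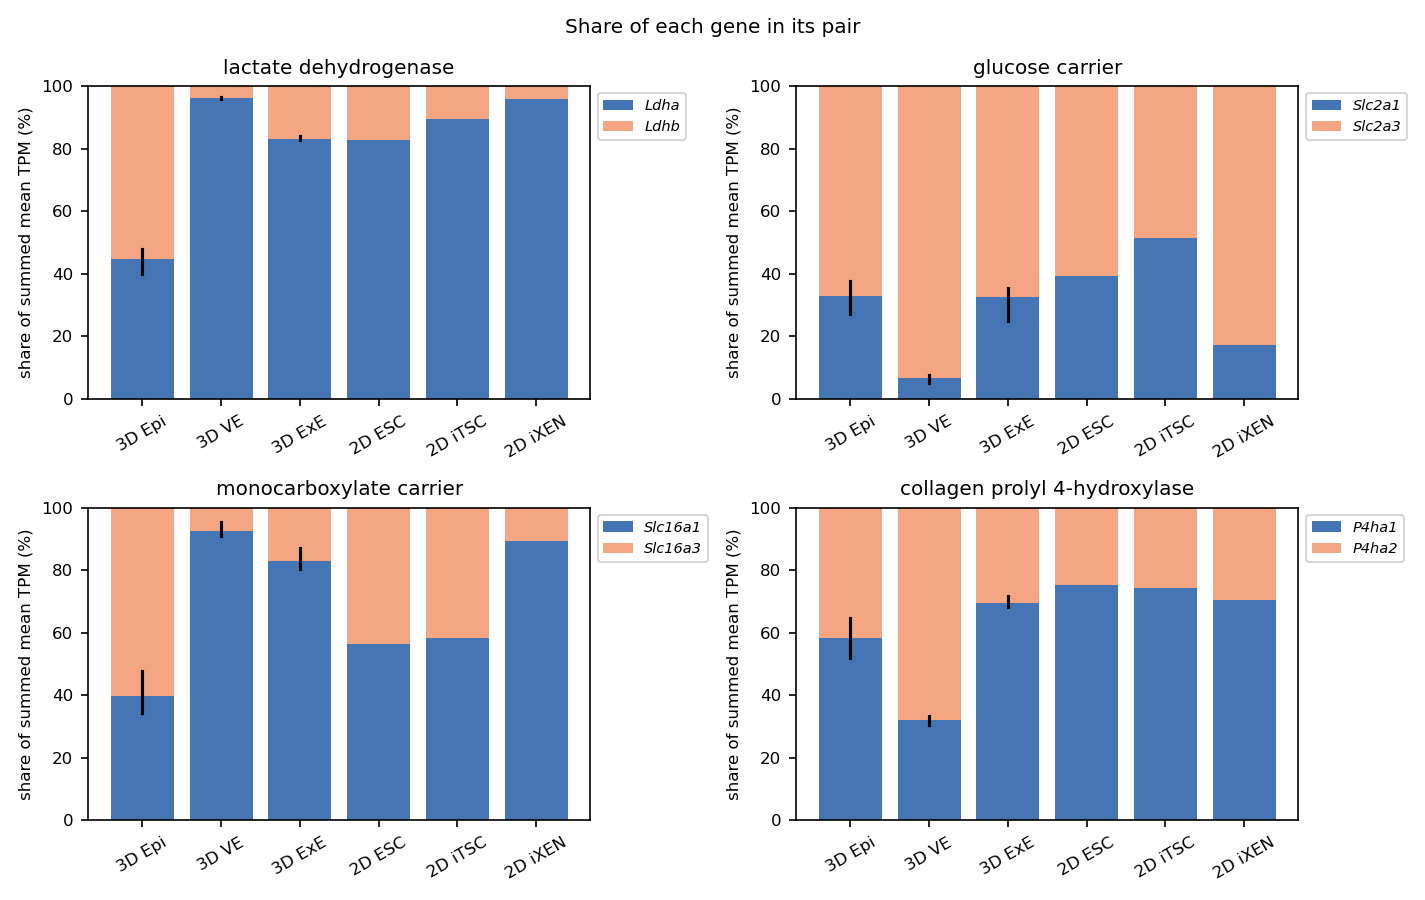
Share of each isozyme or carrier in the summed mean TPM of its family, in percent, for the 6 groups, with a black line for the range of plates 3 to 5 of the first (lower) gene. *Ldhb* takes 55.1% of lactate dehydrogenase in Epi and 3.86% in VE, and *Slc16a1* takes 92.6% of the monocarboxylate carriers in VE and 39.9% in Epi.

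Lactate crosses the membrane through MCT1 (*Slc16a1*), a carrier with high affinity, and MCT4 (*Slc16a3*), which serves export in glycolytic cells and is induced by HIF. *Slc16a1* was 0.390, 0.319 and 0.347 TP10k in Epi, 1.90, 1.85 and 2.14 in VE and 1.48, 1.56 and 1.47 in ExE. All plates of VE and ExE lay above Epi, by log2 ratios of 2.48 and 2.10. *Slc16a3* ran the other way, with 0.532 in Epi, 0.298 in ExE and 0.153 in VE, and was called lower in VE than in Epi (-1.80), in VE than in iXEN (-1.5) and in ExE than in iTSC (-1.39). *Slc16a1* accordingly took 39.9% of the summed TPM of both carriers in Epi, 83% in ExE and 92.6% in VE. The 2D shares were 56.4% in ESC, 58.2% in iTSC and 89.4% in iXEN.

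Pyruvate dehydrogenase kinase 1 (*Pdk1*, chr2:71873224-71903858) inhibits pyruvate dehydrogenase and so limits the oxidation of pyruvate in the mitochondrion. It was 1.53, 1.47 and 1.56 TP10k on the plates of Epi, 0.449, 0.451 and 0.302 in ExE and 0.145, 0.0980 and 0.192 in VE. The compartments did not overlap, and Epi lay 10.6-fold above VE and 3.78-fold above ExE. In 2D it was 0.286 in ESC, 1.27 in iTSC and 0.202 in iXEN, so that iTSC and not ESC led. Epi was 5.32-fold above ESC and ExE 3.15-fold below iTSC. *Pdk1* was found in 90.1% of Epi cells (95% interval 86.3% to 93.2%), although these had fewer genes above 0, and in 84.5% of ESC (95% interval 77.5% to 90%). These intervals are exact (Clopper-Pearson) and cover counting error only. The lower quartile of Epi cells (0.534) lay above the upper quartile of ESC (0.439). Both directions held under all alternatives, with log2 ratios of 2.29 to 2.79 in Epi against ESC.

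*Pfkfb3*, whose product activates phosphofructokinase, was close to the limit of detection in 3D: 0.00658 TP10k in Epi, 0.0120 in VE and 0.0102 in ExE, in 3.5% to 6.98% of cells. The 2D groups had 0.0296 in ESC, 0.170 in iTSC and 0.0779 in iXEN, in 38.3% to 60.3% of cells. It was the one member called lower in 3D in all 3 lineages. It entered these comparisons through the share of 2D cells alone, so a lower call was the likelier outcome. Between cells with 5000 to 8500 genes the direction against ESC turned (log2 ratio 0.21).

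Among the genes of the oxygen sensor, *Hif1a*, the alpha subunit whose stability is controlled, varied little and was 0.757 TP10k in Epi, 0.713 in VE and 0.826 in ExE against 0.588, 0.757 and 0.604 in ESC, iXEN and iTSC, with no call in any comparison. Its hydroxylases differed more. *Egln1* (PHD2) was 0.0412, 0.0459 and 0.0414 in Epi, 0.103, 0.112 and 0.123 in VE and 0.0906, 0.111 and 0.158 in ExE, so that Epi was lowest on every plate. Its calls above Epi were lost on the scale of mean log2(TPM + 1), at 0.95 in VE and 0.78 in ExE. *Egln3* (PHD3), itself a known HIF target, was 0.388, 0.313 and 0.269 in ExE, 0.0655, 0.0715 and 0.0879 in Epi and 0.0176, 0.0187 and 0.0202 in VE, 3 levels apart on every plate. Against the 2D cultures *Egln3* was higher in Epi (log2 ratio 1.87) and ExE (2.73) and lower in VE (-2.02). The share of cells with *Egln3* was 15.9% in Epi (95% interval 12.1% to 20.4%) and 21.8% in ESC (95% interval 15.3% to 29.5%) and so did not follow the means, and on the scale of mean log2(TPM + 1) the Epi ratio was 0.17. In ExE the share was 43.1% (95% interval 37.8% to 48.4%) against 24.1% (95% interval 17.3% to 32%) in iTSC, in the direction of the means.

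*Bnip3*, a receptor for the removal of mitochondria, was 1.84, 2.92 and 3.17 TP10k on plates 3, 4 and 5 of Epi, 1.56, 2.02 and 2.69 in ExE and 0.718, 1.10 and 1.40 in VE. Plate 3 was the lowest and plate 5 the highest in each compartment. Within a plate the order was Epi, ExE and VE throughout. The ESC had 0.471, below every 3D plate, and the iTSC 1.99 and iXEN 1.56. Epi exceeded ESC 5.65-fold (log2 ratio 2.5, 2.01 to 2.69 over the alternatives), and the lower quartile of Epi cells (0.740) lay above the upper quartile of ESC (0.671). ExE against iTSC (0.06) and VE against iXEN (-0.56) were not called.

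*P4ha1* and *P4ha2* encode catalytic subunits of the prolyl hydroxylase of collagen, which is made in bulk by endoderm that lays down basement membrane. *P4ha2* (chr11:54100095-54131665) was 4.00, 4.18 and 4.09 TP10k on the plates of VE, 0.157, 0.231 and 0.156 in Epi and 0.217, 0.201 and 0.254 in ExE. VE stood far above both, 22.5-fold over Epi, and 3.44-fold over iXEN (1.19). It was also the one member with a higher mean in 3D in all 3 lineages. In Epi against ESC the higher mean (log2 ratio 1.45) came with a smaller share of cells, 20.7% (95% interval 16.4% to 25.6%) against 47.2% (95% interval 38.8% to 55.7%), and the direction turned on the scales of mean log2(TPM + 1), at -0.14, and log2(TPM + 0.1), at -0.82. *P4ha1* was 2.00, 1.95 and 1.85 in VE, 0.289, 0.213 and 0.209 in Epi and 0.490, 0.521 and 0.563 in ExE, against 2.84 in iXEN, 0.201 in ESC and 0.371 in iTSC. VE lay 8.19-fold above Epi. The log2 ratio of ExE to Epi, 1.15, fell below 1 (0.97) when only cells led by their own markers were kept, in columns where VE markers summed to 1.23 TP10k. Within the pair, *P4ha2* took 67.9% of the TPM in VE and 29.5% in iXEN.

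The remaining response genes showed no common direction. *Vegfa*, the angiogenic growth factor, was 0.386 TP10k in VE, 0.355 in ExE and 0.0725 in Epi, both extraembryonic groups lying above Epi on every plate. *Ndrg1*, a stress-responsive gene of the NDRG family, was 0.627, 0.514 and 0.314 in ExE, 0.192, 0.217 and 0.197 in VE and 0.0791, 0.0440 and 0.0707 in Epi, against 1.11 in iTSC. The call of its lower level in ExE than in iTSC (log2 ratio -1.18) was lost in 5 of 11 alternatives, with ratios up to -0.72. Among these was the omission of plate 5 (-0.96). The call of its lower level in VE than in ExE (-1.27) was lost in 3 of 11, among them the omission of plate 3 (-0.998). *Ddit4*, an inhibitor of mTORC1, was 0.147 in Epi, 0.120 in ExE and 0.0140 in VE. VE was 10.5-fold below Epi, with *Ddit4* in 5.40% of VE and 41.1% of Epi cells. *Mif*, a cytokine gene, was 43.6, 45.3 and 26.9 in Epi, 24.9, 22.9 and 13.9 in VE and 18.8, 18.7 and 11.7 in ExE, with plate 5 lowest in each, against 41.7 in ESC, 31.8 in iXEN and 32.5 in iTSC.

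Set against its 2D counterpart, each compartment had members on both sides. In Epi against ESC 33 members were compared, of which 5 were called higher (*Pdk1*, *Egln3*, *Bnip3*, *P4ha2* and *Ddit4*) and 3 lower (*Pgam1*, *Ldha* and *Pfkfb3*), beside 11.1% of all genes called higher and 9.21% lower. The members' median log2 ratio was -0.11 (-0.33 to 0.06 on single plates) and that of all 13109 genes 0.12. Both member shares were near the background. The call of *Pgam1* (-1.06) was lost between cells with 5000 to 8500 genes (-0.86) and with unscaled TPM (-0.99). For *Egln3*, *P4ha2* and *Ddit4* the higher mean came from a smaller share of cells, for *Ddit4* 41.1% in Epi against 54.2% in ESC, and the ratio of *Ddit4* was 0.51 on the scale of mean log2(TPM + 1). Stress genes, 9 immediate early and stress response genes, summed to 2.62 TP10k in Epi and 1.41 in ESC. Of the 7 compared, 4 were called higher in Epi and 1, *Junb* (-2.07), lower. Their part in the calls was not tested.

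In VE against iXEN 1 member of 33 was called higher (*P4ha2*) and 7 lower, beside 4.38% and 8.92% of all genes. The lower ones were *Slc2a1* (log2 ratio -2.58), *Slc2a3* (-1.05), *Slc16a3* (-1.5), *Eno2* (-1.61), *Pfkfb3* (-2.69), *Egln3* (-2.02) and *Ddit4* (-1.46). *Pfkfb3*, *Egln3* and *Ddit4* were above 0 in 6.98%, 7.94% and 5.4% of VE cells. They passed the 10% limit through iXEN alone (38.3%, 34% and 46.1%), where they were higher. The count of 7 is therefore not read as an excess over the background. Among the 7 were 3 of the 4 carriers. The median log2 ratio of the members was -0.45 (-0.51 to -0.39) and that of all genes 0.02. *Slc2a3* lay at the 2-fold threshold and fell under it without plate 4 (-0.997).

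In ExE against iTSC 2 members of 33 were called higher, *Egln3* and *Vegfa* (1.48), beside 10.2% of all genes, and 10 lower, beside 14.5%. The lower members were *Slc2a1* (-1.43), *Slc16a3* (-1.39), *Hk1* (-1.58), *Pfkm* (-1.07), *Tpi1* (-1.12), *Pgk1* (-1.17), *Ldha* (-1.17), *Pfkfb3* (-4.06), *Pdk1* (-1.66) and *Ndrg1* (-1.18). All 15 enzymes had a lower mean in ExE, with a median log2 ratio of -0.65, and the median over the members was -0.57 (-0.63 to -0.56) against 0.02 over all genes. Many calls lay near the threshold. With unscaled TPM 5 instead of 10 were lower, beside 11% of all genes. Between cells with 5000 to 8500 genes 6 were lower, beside 11.7%. *Vegfa* was 0.38 between the latter cells and not called, and its call was lost in 3 of 11 alternatives. It was above 0 in 57.2% of ExE and 62.4% of iTSC cells, so the share did not follow the means.

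**Figure D3:**
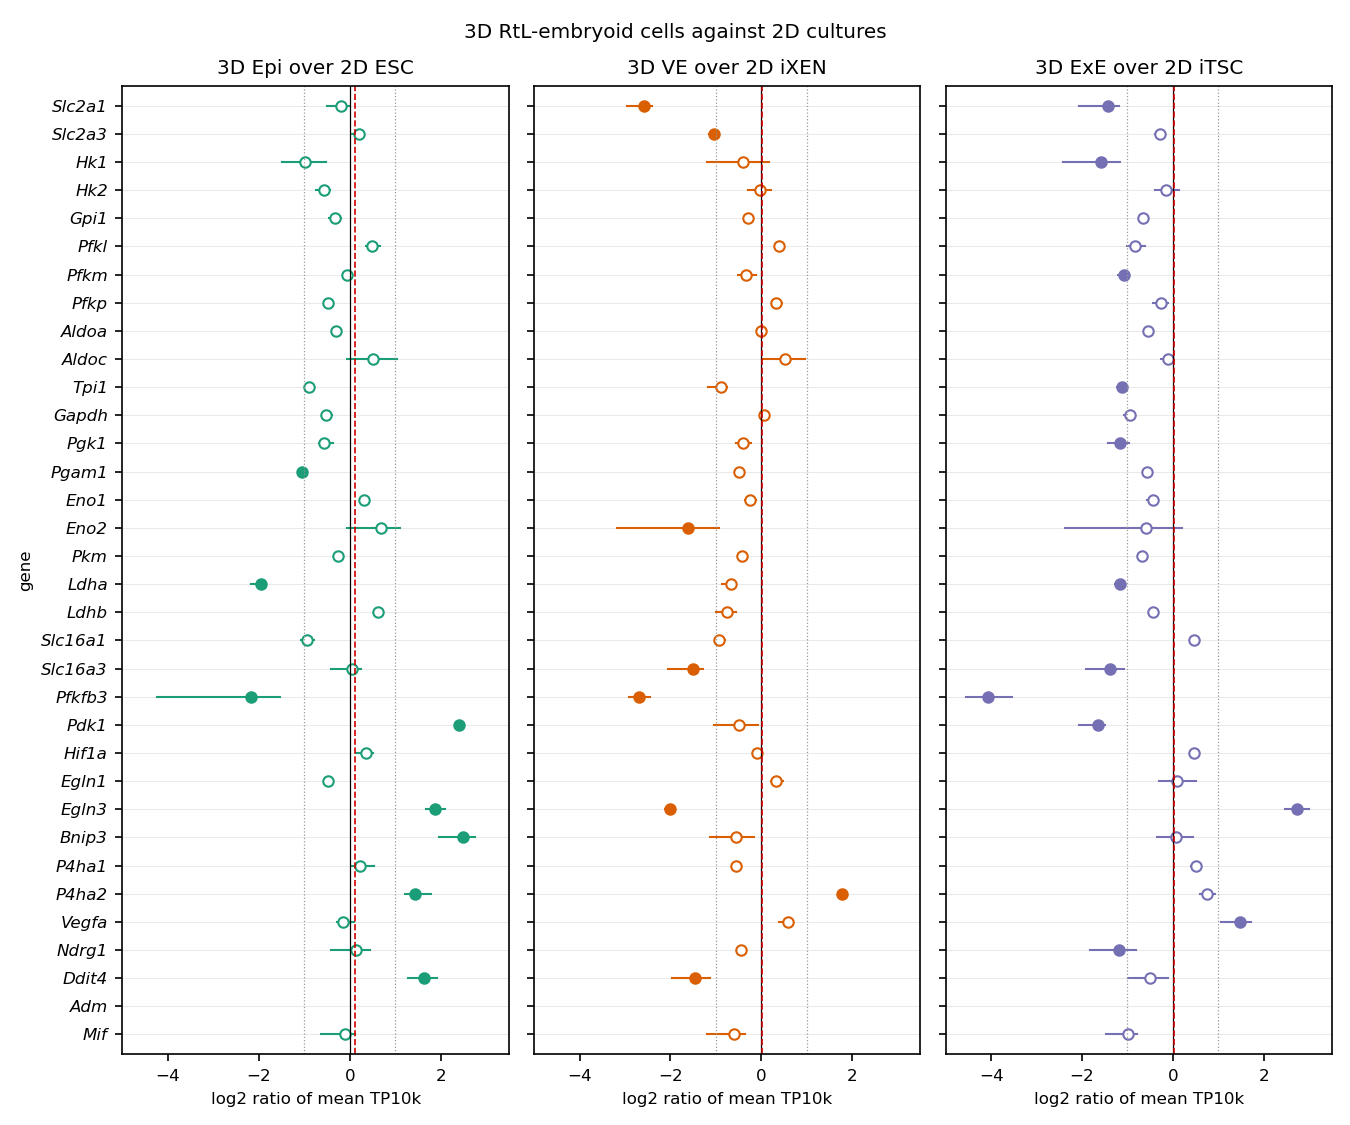
Log2 ratio of the mean level in each 3D compartment to that in its 2D culture, per member, with a line for the range of plates 3 to 5, filled circles for called members, dotted lines at 2-fold and a red dashed line at the median of all genes compared. *Pfkfb3* lies left of the 2-fold line in all 3 panels (-2.17, -2.69 and -4.06), and *Pdk1* lies on opposite sides in Epi (2.41) and ExE (-1.66).

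Taken over all 3 lineages, 13 of the 33 members had a lower mean in 3D than in 2D each time, beside 15.1% of 11455 genes. These were *Slc2a1*, *Hk1*, *Hk2*, *Gpi1*, *Pfkm*, *Aldoa*, *Tpi1*, *Pgk1*, *Pgam1*, *Pkm*, *Ldha*, *Pfkfb3* and *Mif*, so that the carrier, 9 enzymes and *Ldha* of the glycolytic path made up most of them. A higher mean in all 3 was found for 1 member, *P4ha2*, beside 23.8% of genes. With the 2-fold rule 1 member was lower in all 3, *Pfkfb3*, beside 0.751% of genes, and 0 higher, beside 0.419%. *Pfkfb3* was above 0 in 3.5%, 6.98% and 6.8% of Epi, VE and ExE cells. It passed the limit on the share of cells through ESC, iXEN and iTSC alone (43%, 38.3% and 60.3%), where it was higher. A lower call was thus the likelier outcome for *Pfkfb3*, and it is not read against the 0.751%. On the scale of mean log2(TPM + 1) the lower mean held for 22 members, beside 75.2% of all genes, so the excess over the background is not seen there. The differences were small for most: *Hk2* had log2 ratios of -0.56, -0.02 and -0.16 in Epi, VE and ExE, *Aldoa* -0.31, -0.01 and -0.54, and *Gpi1* -0.33, -0.28 and -0.65. *Pgk1* (-0.56, -0.41 and -1.17), *Tpi1* (-0.89, -0.90 and -1.12) and *Ldha* (-1.95, -0.67 and -1.17) were larger.

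Among the compartments themselves, VE against Epi gave the most calls. Of 32 members 6 were higher in VE (*P4ha2*, *P4ha1*, *Slc16a1*, *Vegfa*, *Ndrg1* and *Egln1*) and 10 lower (*Ldhb*, *Pdk1*, *Ddit4*, *Egln3*, *Aldoc*, *Slc2a1*, *Slc16a3*, *Pkm*, *Bnip3* and *Eno1*), beside 16.3% of all genes higher and 16.3% lower. *Ddit4* and *Egln3*, in 5.4% and 7.94% of VE cells, passed the 10% limit through Epi alone (41.1% and 15.9%), where they were higher. *Ndrg1*, in 7.64% of Epi cells, passed through VE alone (33.3%). The counts of VE against Epi are therefore not read against the background. ExE against Epi gave 6 higher of 31 (*Ndrg1* 2.92, *Vegfa* 2.29, *Egln3* 2.11, *Slc16a1* 2.10, *Egln1* 1.48 and *P4ha1* 1.15), beside 15.5%, and 4 lower (*Ldhb* -2.18, *Pdk1* -1.92, *Mif* -1.23 and *Eno1* -1.09), beside 8.98%. VE against ExE gave 2 higher of 32 (*P4ha2* 4.19 and *P4ha1* 1.89), beside 8.86%, and 8 lower, beside 15.5%. Among the last, *Egln3* (-4.11), *Ddit4* (-3.10), *Ldhb* (-2.47) and *Slc2a1* (-2.21) differed most. In VE against ExE, *Egln3* and *Ddit4* passed the 10% limit through ExE alone (43.1% and 41.9% of cells), where they were higher. *Ndrg1* entered ExE against Epi through ExE alone (27.8% of cells). The counts of both comparisons with ExE are therefore not read against the background. With only the cells led by their own markers, the calls that involve ExE remained except that of *P4ha1* above Epi and that of *Ndrg1* below iTSC (-0.88). These comparisons share cells and are not independent of one another.

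In the 2D cultures iXEN against ESC gave 10 members higher and 6 lower of 33, beside 20.4% and 19.2% of all genes. The higher ones were *Slc2a3*, *Eno2*, *Slc16a1*, *Pfkfb3*, *Egln3*, *Bnip3*, *P4ha1*, *P4ha2*, *Vegfa* and *Ndrg1*, and the lower ones *Hk1*, *Pfkp*, *Aldoc*, *Pkm*, *Ldha* and *Ldhb*. iTSC against ESC gave 9 higher and 1 lower, *Ldhb*, beside 22.3% and 11.1%, with a median log2 ratio of 0.66 over the members and 0.18 over all genes. The higher ones were *Slc2a1*, *Hk1*, *Eno2*, *Pfkfb3*, *Pdk1*, *Egln3*, *Bnip3*, *Ndrg1* and *Ddit4*. iXEN against iTSC gave 6 higher and 9 lower, beside 12.2% and 21.1%. *Ndrg1* (4.25 in iTSC against ESC), *P4ha2* (4.15 in iXEN against ESC) and *P4ha1* (3.82) had the widest positive ratios.

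The lineage differences of 3D and of 2D share no cells, but they compare the same ESC lines with the same transgenes. Lineage and line cannot be told apart in either. Between endoderm and pluripotent cells, 5 members were called higher in both (*Slc16a1*, *P4ha1*, *P4ha2*, *Vegfa* and *Ndrg1*), beside 11.9% of genes, and 3 lower (*Aldoc*, *Pkm* and *Ldhb*), beside 9.3%. *Egln3* and *Bnip3* were called in opposite directions, lower in VE than in Epi (-2.0 and -1.33) and higher in iXEN than in ESC (1.89 and 1.73), beside 0.772% of all genes with opposite calls. *Egln3* passed the 10% limit in VE against Epi through Epi alone (15.9% against 7.94% of VE cells). Its call there was lost on both log scales. These opposite calls are therefore not read against that share. Between trophoblast and pluripotent cells 2 members were higher in both (*Egln3* and *Ndrg1*), beside 7.87% of genes, and 1 lower (*Ldhb*), beside 4.31%, while 1, *Pdk1*, was opposite (-1.92 in 3D and 2.15 in 2D), beside 1.21%. Between endoderm and trophoblast 2 were higher in both (*P4ha1* and *P4ha2*), beside 5.6% of genes, and 7 lower (*Slc2a1*, *Hk1*, *Aldoc*, *Ldhb*, *Pdk1*, *Ndrg1* and *Ddit4*), beside 8.04%, and 0 opposite, beside 1.09%. *Ndrg1* entered the 3D comparisons with Epi through VE or ExE alone, and *Ddit4* that of VE with ExE through ExE alone. The shared counts that hold them are not read against the background either.

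**Figure D4:**
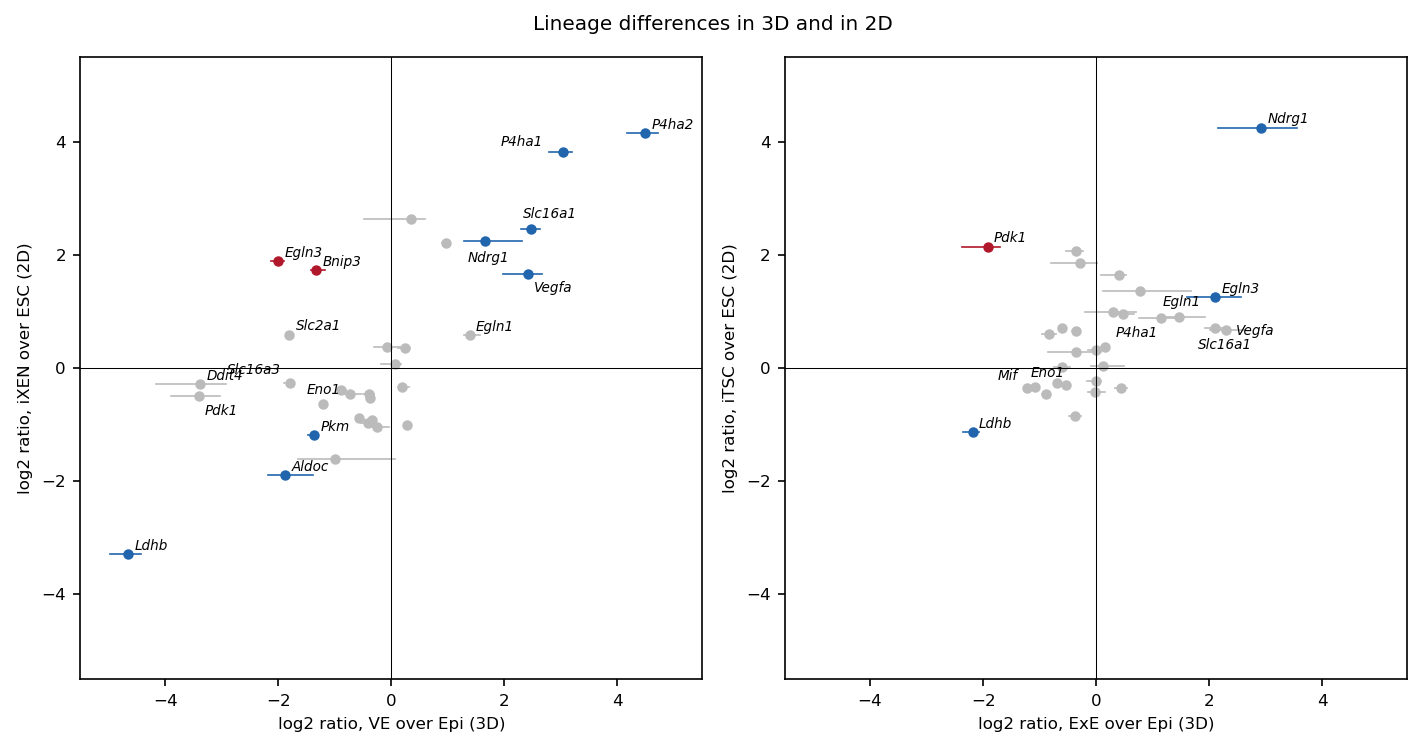
Log2 ratio between lineages in 3D (horizontal, with the range of plates 3 to 5) and in 2D (vertical) for each member, with blue for the same call in both, red for opposite calls and grey for the rest. *P4ha2* (4.49 in 3D and 4.15 in 2D) and *Ldhb* (-4.66 and -3.28) lie near the diagonal of endoderm against pluripotent cells, and *Bnip3* (-1.33 and 1.73) lies off it.

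Single cells of a group differed widely. The middle 50% of Epi cells spanned 4.10 to 19 TP10k for *Ldha* and 0.740 to 3.65 for *Bnip3*. In VE the same span of *P4ha2* was 1.65 to 6.17, while in Epi it was 0 at both ends. Spearman's rho between pairs of members that 50% or more of a group held above 0, taken within plates, had medians of 0.06 to 0.12 over the pairs of a group. The highest values joined glycolytic enzymes: *Eno1* and *Pkm* in Epi (0.46, with 0.28 to 0.71 on single plates), *Pkm* and *Ldha* in VE (0.48, 0.41 to 0.52) and *Eno1* and *Ldha* in ExE (0.56, 0.54 to 0.57). Cells of 1 group share libraries and depth, and the values are given as a description.

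**Figure D5:**
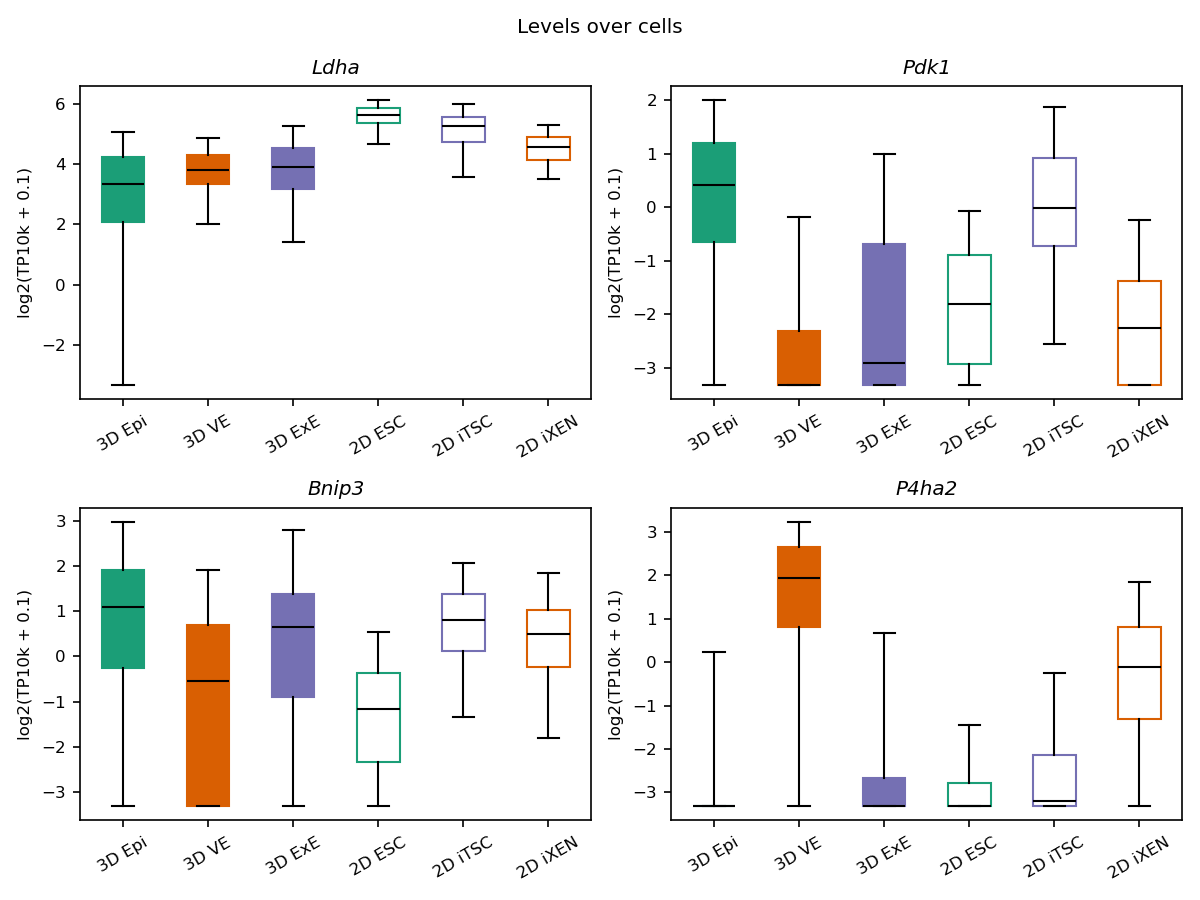
Levels of *Ldha*, *Pdk1*, *Bnip3* and *P4ha2* in single cells as log2(TP10k + 0.1), with boxes for the quartiles, a line for the median and whiskers for the 5th to 95th percentiles. The *Ldha* box of ESC (41.2 to 58.2 TP10k) lies above that of Epi (4.10 to 19), and the *P4ha2* box of VE (1.65 to 6.17) lies above those of the other 5 groups except iXEN, which reaches 1.66.

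Other genes of the same pathways, 36 of glucose metabolism and 33 of the hypoxia response, were counted in the same way and stand beside the all-gene shares given above for each comparison. Of the former, 4 of 28 compared were higher and 0 lower in Epi than in ESC, led by *Pdk2*, *Pdp1* and *Pfkfb1*, beside 11.1% and 9.21% of all genes. In the same list 2 of 29 were higher and 4 lower in VE than in iXEN, beside 4.38% and 8.92%, and 2 of 28 were higher and 1 lower in ExE than in iTSC, beside 10.2% and 14.5%. *Pdk2*, another pyruvate dehydrogenase kinase, was 0.115 TP10k in Epi against 0.0373 in ESC, and *Pdp1*, a phosphatase with the opposite action, 0.122 against 0.0411. *Hkdc1*, a hexokinase-like gene, was 0.634 in VE and 0.649 in iXEN against 0.000674 in Epi and 0.00331 in ESC. Of the hypoxia genes, 4 of 30 were higher and 4 lower in Epi than in ESC, 2 of 28 higher and 5 lower in VE than in iXEN, and 1 of 29 higher and 1 lower in ExE than in iTSC. *Epas1*, the HIF-2 alpha subunit, was 0.0628 in VE against 0.314 in iXEN and 0.0902 in ExE against 0.0247 in iTSC. *Plod2*, a lysyl hydroxylase of collagen, was 1.34 in VE and 1.24 in iXEN against 0.150 in Epi and 0.175 in ESC, and *Tfrc*, the transferrin receptor, 0.0119 and 0.0223 against 0.632 and 1.5. None of the 5 genes of the pentose phosphate pathway was called in VE against iXEN or ExE against iTSC, and *Pgd* was lower in Epi than in ESC.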

How the data were processed

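Single cells were sorted into plates and sequenced by SMART-seq2 without molecular identifiers. The authors demultiplexed the reads (bcl2fastq 2.20 per the labels), quantified them with kallisto against mouse transcripts and summed them to genes, filtered mitochondrial, ribosomal and pseudogenes, and deposited TPM per gene and well. TPM keeps no read depth, and the number of genes above 0 was used in its place. The labels place wells by plate and column. They do not give the compartment of a column, which was checked against markers as stated above.

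Here 39 wells without values and wells with fewer than 2500 genes above 0 were left out. TPM was scaled to 10000 per cell, averaged over cells and compared as a log2 ratio of means. Over the whole table, genes that 10% or more of the cells on either side had above 0 were compared, and a call required 2-fold in 1 direction on all 3 plates of the pool (between 2D cultures, 2-fold alone). With 1 sample a group no test was run, so that the spread between plates covers technical variation only. All 34 members are named, and of each other list at most the 3 called genes with the largest ratio in a comparison. The members and lists were chosen with earlier results of these data known. Alternatives were other limits on genes per cell, unscaled TPM, centring on all genes, means of log2(TPM + 1) and log2(TPM + 0.1), cells led by their own markers, and leaving out each plate. The choice of cells by the share of their markers was added after seeing the data. Doublets were not removed. The scripts were tested on simulated data. Promoter letters were read from RefSeq windows of GRCm38.p6 and gene positions from Gencode on GRCm38. Python 3.11.15, numpy 2.4.6, pandas 2.3.3, scipy 1.17.1 and matplotlib 3.10.9 were used.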

Additional observations from a re-analysis of the deposited data

Results flagged for a closer look

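A few members were called in opposite directions in groups set against the same kind of control, and in each case the difference between the directions was not tested. *Pdk1* was higher in Epi than in ESC (log2 ratio 2.41) and lower in ExE than in iTSC (-1.66). *Egln3* was higher in Epi than in ESC (1.87) and in ExE than in iTSC (2.73), and lower in VE than in iXEN (-2.02). *Ddit4* was higher in Epi than in ESC (1.64) and lower in VE than in iXEN (-1.46). On the scale of mean log2(TPM + 1) the calls of *Egln3* (0.17 in Epi, -0.85 in VE) and *Ddit4* (0.51 in Epi, -0.87 in VE) were lost, and that of *Egln3* in ExE was kept.

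The lineage ratios also crossed between 3D and 2D. *Egln3* was -2.0 in VE against Epi and 1.89 in iXEN against ESC, *Bnip3* was -1.33 and 1.73 in the same comparisons, and *Pdk1* was -1.92 in ExE against Epi and 2.15 in iTSC against ESC. The call of *Egln3* in VE against Epi was lost on the scales of mean log2(TPM + 1), at -0.44, and log2(TPM + 0.1), at -0.71. In that comparison *Egln3* passed the limit on the share of cells through Epi alone. The ESC level behind these ratios was 0.286 TP10k for *Pdk1*, below 3 of the other 5 groups, and 0.471 for *Bnip3*, below all 5.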

How the results depend on the processing

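Of the 64 calls of members in the 6 comparisons with a 3D side, 45 kept call and sign in every alternative and 61 kept the sign. Between cells with 5000 to 8500 genes above 0, of which the ESC had 21, the median log2 ratio of the members moved to 0.16 in Epi against ESC, -0.47 in ExE against iTSC, -0.18 in ExE against Epi, -0.0118 in iXEN against ESC and -0.34 in iXEN against iTSC. In the same order the medians of all genes were 0.11, 0.07, 0.11, -0.0117 and -0.16. This window did not match the numbers of genes. Their median was 5667.5 in Epi against 8146 in ESC, 6092 in VE against 7798.5 in iXEN, and 6052.5 in ExE against 7630 in iTSC. There 1 member was higher and 6 lower in ExE than in iTSC, beside 10.2% and 11.7% of all genes. In iXEN against ESC 3 were lower, beside 21.5%, and 0 were lower by 2-fold in all 3 lineages, beside 0.547%. *Pfkfb3* turned to 0.21 in Epi against ESC. With unscaled TPM 5 members were lower in ExE than in iTSC, beside 11% of all genes (medians -0.38 and 0.22). Centred on all genes, 6 were lower in Epi than in ESC, beside 10.9%, and 2 in iTSC than in ESC, beside 13.9%. The median of VE against ExE was then 0.0123.

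The means of log2(TPM + 1) gave 2 members higher and 12 lower in Epi than in ESC (median -0.56), 11 lower in VE than in iXEN (-0.82), 1 higher in ExE than in iTSC (-0.87), 4 higher in VE than in ExE (-0.0495), 2 lower in iTSC than in ESC (0.21), and a median of -0.25 in ExE against Epi. A lower mean in all 3 lineages then held for 22 members, 3 by 2-fold, beside 75.2% and 9.48% of all genes, and *P4ha2* was -0.14 in Epi against ESC. With log2(TPM + 0.1) the counts were 2 and 17 (-1.13), 21 (-1.20), 1 higher and 20 lower (-1.32), 4 (0.00828) and 3 (0.20), with -0.36 in ExE against Epi, 23 members lower in all 3 lineages and 11 by 2-fold, *P4ha2* at -0.82, and *Ndrg1* at 0.0706 in VE against ExE. Over all genes 38.9%, 29% and 21% were lower on the first scale in Epi, VE and ExE than in 2D, and 67.5%, 61.4% and 48.5% on the second, with 85.1% lower in all 3 lineages and 38.6% by 2-fold. Higher in Epi and ExE than in 2D were 0.755% and 1.72% on the first scale and 0.908% and 1.95% on the second. In VE 9.58% and 15.6% were higher than in ExE on the 2 scales, and in iTSC 12.5% and 23.9% lower than in ESC. The log scales weigh cells at 0, which are more frequent in 3D, and the cause of these shifts was not tested. Leaving out 1 plate at a time gave medians of -0.48 to -0.39 in VE against iXEN and ended 1 call each. No paired analysis was possible because each group is 1 sample.

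Precision is limited by the 1 pool and 1 culture a group, by the number of genes found per 3D cell and by the lack of molecular identifiers. Members found in few cells (*Pfkfb3*, *Eno2*, *Egln3*, *Ndrg1*) rest on few transcripts.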
